A study of Mus musculus with 3 samples.

Results

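Smooth muscle cells and myofibroblasts are the contractile cells of the lung. They wrap the airways and the blood vessels, and myofibroblasts also lie in the alveolar wall. The cells described here were chosen by their own RNA counts: a cell needed at least 10 unique molecular identifiers (UMIs, counted RNA molecules) of Acta2 and Tagln together, at least 2 UMIs of Myh11, Cnn1, Actc1, Actg2 and Des together, and 0 UMIs of both Ptprc, the pan-leukocyte gene, and Cdh5, the endothelial cadherin. Only barcodes that had 200 or more genes with a UMI, and no more than 10% of their UMIs from mitochondrial genes, entered the choice. It found 86 member cells among 6458 kept cells of 6662 barcodes.

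The cells came from 3 droplet libraries of dissociated mouse lung, 1 library per group. In CONV, the thorax of C57BL/6 female mice of 10 to 12 weeks had received 17 Gy of electrons in conventional mode under isoflurane. In FLASH, the same dose had been delivered to such mice in FLASH mode, which uses an ultra-high dose rate. NI was lung of the same strain labelled as a non-irradiated control, for which anaesthesia is not stated. How many mice went into a library, and how long after irradiation and at what hour of the day the lungs were taken, is not given in the sources used here. With 1 library per group no test between mice was possible, so differences are described by their size. Values in brackets are 95% intervals for counting error only, and UMIs of genes were scaled to CPM, that is per 1000000 of all UMIs, of the member cells of that library.

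Contraction of these cells uses actin filaments built from the smooth muscle actins, the motor Myh11 with its light chains, and the calponins and transgelin that bind the filament. Calcium starts it through calmodulin and the myosin light chain kinase Mylk. The genes of the apparatus are under the control of serum response factor, which binds the CArG box, a short motif in their promoters, together with its partner myocardin. The same factor, with other partners, drives immediate early genes such as Fos. Smooth muscle also makes elastic fibres and collagens, and myofibroblasts are the cells best known for matrix production in lung fibrosis.

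The member cells were 44 in CONV, 21 in FLASH and 21 in NI. Their share of the kept cells was 1.81% of 2434 CONV cells (1.32 to 2.42), 0.915% of 2296 FLASH cells (0.567 to 1.39) and 1.22% of 1728 NI cells (0.754 to 1.85). Against NI the share was 0.592 points higher in CONV (-0.191 to 1.33) and differed by -0.301 points in FLASH (-1.01 to 0.336), so both differences were within counting error. FLASH lay -0.893 points from CONV (-1.58 to -0.230). The kept cells with 0 Ptprc UMIs were 1681 in CONV, 1631 in FLASH and 875 in NI. A leukocyte in which no Ptprc UMI was counted stays in this base, and how many did was not tested. The median kept cell had 2364.5 UMIs in CONV, 1804 in FLASH and 2962.5 in NI. Of the kept cells with 0 Ptprc UMIs the members were 2.62% in CONV, 1.29% in FLASH and 2.40% in NI. On this base FLASH differed from NI by -1.11 points (-2.43 to -0.0479) and from CONV by -1.33 points (-2.31 to -0.386). A share also follows how well a tissue comes apart and what was loaded, and with 1 library per group these cannot be told apart from the treatment.

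Depth limits what the smaller groups can show. The member cells held 100726 UMIs in CONV, 44157 in FLASH and 84259 in NI, so 1 UMI was worth 9.93 CPM in CONV, 22.6 CPM in FLASH and 11.9 CPM in NI. The median member cell had 2073 UMIs in CONV, 1825 in FLASH and 4208 in NI, and therefore NI cells reached the UMI limits of the rule more easily. When every cell was first thinned to 1000 UMIs, 42 CONV, 20 FLASH and 17 NI cells met the same rule. No member shared its barcode with a member of another library, and 0 members were among the cells removed by a doublet caller.

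Few cells lay near the limits of the rule. The Acta2 and Tagln sum had a median of 48.5 UMIs in CONV, 60 in FLASH and 60 in NI. The lowest sum among the members was 16 UMIs in CONV, 11 in FLASH and 10 in NI, and the highest sum among the cells that met all other limits but not this one was 4 UMIs in CONV, 5 in FLASH and 7 in NI. Of the kept cells with at least 10 UMIs of the pair, 11 of 57 in CONV, 6 of 28 in FLASH and 3 of 25 in NI lacked the second contractile sum, and 1 in each library had a UMI of Ptprc or Cdh5.

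**Figure D1:**
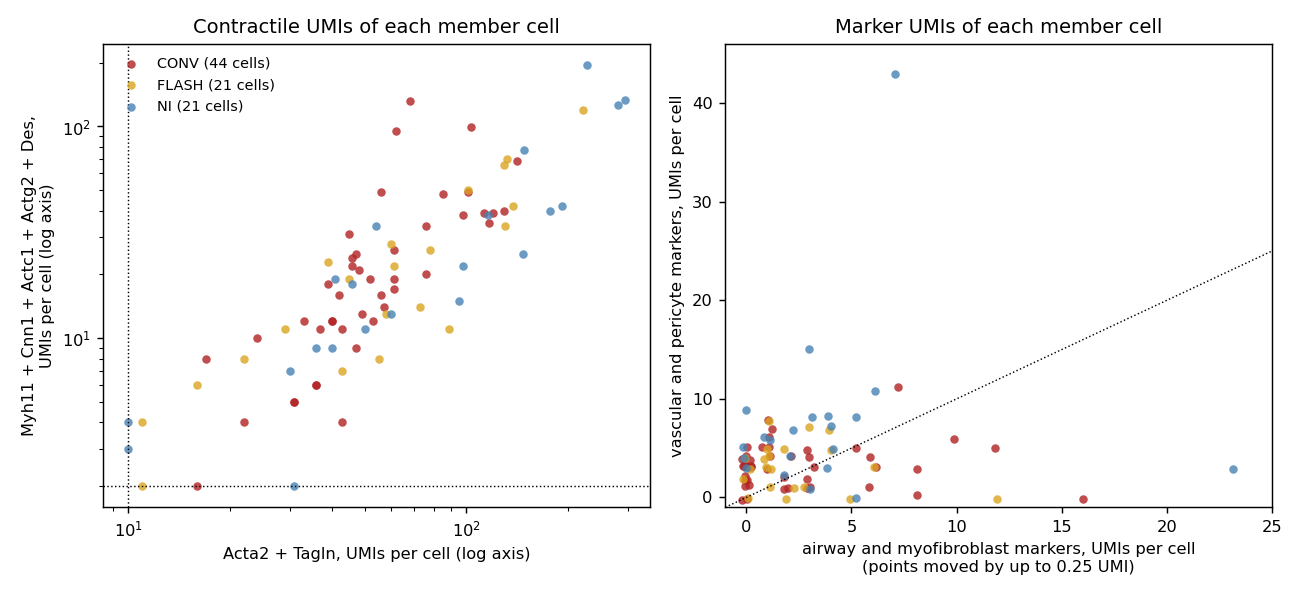
Each point is 1 member cell, coloured by library. Left: UMIs of Acta2 and Tagln (x axis, log) against UMIs of the 5 other contractile genes (y axis, log), with dotted lines at the limits of 10 and 2 UMIs. Right: UMIs of the airway and myofibroblast markers (x axis) against those of the vascular and pericyte markers (y axis), with a dotted line where both are equal. Most cells lie far above both limits, and 1 NI cell stands apart with 43 vascular and pericyte UMIs.

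The 5 smooth muscle markers are all genes of the rule, so the rule fixed their presence in the members and their excess over other cells. They summed to 32663 CPM in the CONV members, 43210 CPM in the FLASH members and 31439 CPM in the NI members, against 141 CPM in the other kept cells of CONV, 117 CPM in those of FLASH and 88.6 CPM in those of NI. The 13 cardiac muscle markers, checked because Actc1 is the heart's main actin, summed to 12 UMIs in CONV, 2 in FLASH and 14 in NI, of which 11 were in a single NI cell and 6 in a single CONV cell. The markers with UMIs were Myl4, Tnnt2, Tnni3 and Tnnc1 in CONV members, Tnnt2 in FLASH members, and Myl4 and Tnnt2 in NI members. The rest of the list, Myl7, Myl3, Myh6, Actn2, Nppa, Sln, Mb, Ttn and Nkx2-5, had 0 UMIs in the members of every library.

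Members that also carried fibroblast or pericyte RNA were few. Inmt and the 5 other alveolar fibroblast markers reached 46 and 42 UMIs in 2 CONV cells and 117 UMIs in 1 NI cell, which had 0 UMIs of Acta2 and 10 of Tagln and so entered by Tagln alone. One NI cell carried 26 UMIs of the pericyte markers and 8 of Acta2 with 2 of Tagln. Several results that rest on these cells are given with and without them. The alveolar fibroblast markers summed to 1440 CPM in the CONV members, 589 CPM in the FLASH members and 1970 CPM in the NI members. The other kept cells had 2786 CPM in CONV, 2441 CPM in FLASH and 1026 CPM in NI. Only in NI was the sum higher in the members, and 1 cell, with 117 of the 166 UMIs, accounted for that excess. The 6 airway epithelial markers summed to 7237 CPM in the CONV members, 7315 CPM in the FLASH members and 4747 CPM in the NI members, against 68144 CPM in the other kept cells of CONV, 64718 CPM in those of FLASH and 55537 CPM in those of NI. RNA of epithelial cells was found in all members: Scgb1a1, the club cell secretoglobin, had a median of 15 UMIs per member in CONV, 13 in FLASH and 17 in NI, and in lymphocytes, which do not make it, the median was 17 UMIs in CONV, 13 in FLASH and 16 in NI. Free RNA in the droplets adds such counts to cells that do not make them, and its part in the values below was not tested. Some genes that other lung cells make are therefore given with their level in the lymphocytes of the same library, and the rest are not. These lymphocytes were 203 cells in CONV, 160 in FLASH and 598 in NI. Their median depths were 2156 UMIs in CONV, 1598.5 in FLASH and 2923 in NI.

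Outside the genes of the rule, 15 genes set the members most apart from the other kept cells. Since these cells were chosen by related genes, the list is a description and no test. Lmod1, the leiomodin that starts actin filaments, was at 824 CPM in CONV, 951 CPM in FLASH and 546 CPM in NI, while the other kept cells had 1.25 CPM in CONV, 1.89 CPM in FLASH and 1.01 CPM in NI. Myl9, the regulatory light chain of smooth muscle myosin, had 526 UMIs in CONV, 269 in FLASH and 513 in NI. Tpm2, a tropomyosin, had 503 UMIs in CONV, 239 in FLASH and 363 in NI. The others were Map3k7cl, Adcy5, Synpo2, Hspb7, Aoc3, Sh3bgr, Tcap, Fbxl22, Mustn1, Kcnmb1, Timp4 and Nov, which include an adenylyl cyclase, the vascular adhesion amine oxidase and the beta subunit of the smooth muscle potassium channel. Tcap, a sarcomere protein, came mostly from single cells, with 27 of 49 UMIs in 1 CONV cell and 15 of 21 UMIs in 1 FLASH cell.

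Members leaned to vessels more often than to airways. By the list with more UMIs in a cell, 26 of 44 CONV members were on the vascular and pericyte side, against 13 on the airway and myofibroblast side and 5 ties. In FLASH 13 of 21 cells were on the vascular side, 6 on the airway side and 2 tied, and in NI 16 of 21 were on the vascular side, 4 on the airway side and 1 tied. The vascular share was 59.1% in CONV (43.2 to 73.7), 61.9% in FLASH (38.4 to 81.9) and 76.2% in NI (52.8 to 91.8), so the intervals overlap. These sides are ranges and not cell types, because 11 CONV, 4 FLASH and 3 NI cells were within 1 UMI of the line between them. Of the airway list, Stc1 and Nog had 0 UMIs in CONV and FLASH members, and Fgf18, Wnt5a and Nog had 0 in NI members. Of the vascular list, Fhl5 and Trpc6 had 0 UMIs in all 3.

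Of the 7 genes that chose the cells, only Actc1 was past 2-fold between a pair of libraries. Their summed level in FLASH was 1.34 times that in NI (1.27 to 1.42) and 1.28 times that in CONV (1.21 to 1.34), and that in CONV was 1.05 times that in NI (1.00 to 1.10). Acta2, smooth muscle actin (chr19:34241090-34255590, minus strand, build mm10 in GENCODE M21, as are all gene positions here), had 1461 UMIs in CONV, 953 in FLASH and 1300 in NI, which is 14505 CPM in CONV, 21582 CPM in FLASH and 15429 CPM in NI. The ratio of CONV to NI was 0.94 (0.872 to 1.01), that of FLASH to NI 1.40 (1.29 to 1.52) and that of FLASH to CONV 1.49 (1.37 to 1.62). Tagln, transgelin, was at 11348 CPM in CONV, 13294 CPM in FLASH and 10492 CPM in NI. Myh11, the smooth muscle myosin heavy chain, was at 1479 CPM in CONV, 2083 CPM in FLASH and 1543 CPM in NI. Des, desmin of the intermediate filaments, had ratios to NI of 1.13 in CONV (0.94 to 1.36) and 1.14 in FLASH (0.907 to 1.43). Actg2, the enteric smooth muscle actin, had ratios of 1.14 in CONV (0.926 to 1.39) and 1.03 in FLASH (0.792 to 1.34). The ratios for Cnn1, calponin, were 0.775 in CONV (0.627 to 0.956) and 0.888 in FLASH (0.682 to 1.15). These values, and those of Actc1, come from genes that picked the cells, so they are a description only.

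Actc1 (chr2:114047282-114053548, minus strand), the cardiac alpha actin, which smooth muscle can also make, is a gene of the rule as well, 1 of the 5 of its second sum. It had 362 UMIs in 36 of 44 CONV cells, 188 UMIs in 13 of 21 FLASH cells and 146 UMIs in 14 of 21 NI cells, or 3594 CPM in CONV, 4258 CPM in FLASH and 1733 CPM in NI. The ratio to NI was 2.07 in CONV (1.71 to 2.53) and 2.46 in FLASH (1.97 to 3.07), and FLASH to CONV was 1.18 (0.988 to 1.42). The UMIs were uneven between cells: the highest cell held 63 UMIs in CONV, 64 in FLASH and 51 in NI, while the median cell held 2.5 in CONV, 4 in FLASH and 3 in NI. Thinned to 1000 UMIs, 31 of 44 CONV cells, 12 of 21 FLASH cells and 10 of 21 NI cells had a UMI of it. One CONV cell with 42 alveolar fibroblast UMIs also had 58 of Actc1, and without the cells rich in that fibroblast RNA the ratio of CONV to NI was 1.77 (1.45 to 2.17), under the 2-fold line. Cells on the airway side gave 4.71 for CONV (3.08 to 7.47) and 2.61 for FLASH against NI. Cells on the vascular side gave 1.34 for CONV (1.05 to 1.72) and 2.37 for FLASH. The airway side holds only 4 NI cells, among them the NI cell rich in fibroblast RNA.

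The CArG box was looked for in the promoters because these genes belong to the serum response factor set. Promoter windows of RefSeq on build GRCm38.p6 run from 250 bases before to 50 bases after the start of the transcript. Only the exact form CCWWWWWWGG, with W for A or T, was counted. Looser forms of the box, and boxes outside the window, were not looked for, so a gene without a match may still have one. Of 7 genes of the rule, 4 had a window (Acta2, Cnn1, Actc1 and Des), and 1 of them, Actc1, held the box. Of 18 genes in the list of thin filament genes and calcium-binding regulators, which also holds myosin light chains, 15 had a window and 3 held the box. Among all 32851 windows, 1.63% held it on either strand, and of all 27025 genes 1.81% held it in any window. The windows of Actc1 and of the 2 light chains Myl9 and Myl6 are shown 5' to 3', because they carry the box in the genes with many UMIs in these cells, and the capitals mark the box.
Actc1, chr2:114052826-114053125, minus strand: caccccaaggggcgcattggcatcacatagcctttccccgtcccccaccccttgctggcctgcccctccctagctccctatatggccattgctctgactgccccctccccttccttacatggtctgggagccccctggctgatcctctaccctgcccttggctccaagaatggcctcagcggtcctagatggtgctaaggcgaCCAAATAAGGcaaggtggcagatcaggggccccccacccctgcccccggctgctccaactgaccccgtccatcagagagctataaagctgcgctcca
Myl9, chr2:156775214-156775513, plus strand: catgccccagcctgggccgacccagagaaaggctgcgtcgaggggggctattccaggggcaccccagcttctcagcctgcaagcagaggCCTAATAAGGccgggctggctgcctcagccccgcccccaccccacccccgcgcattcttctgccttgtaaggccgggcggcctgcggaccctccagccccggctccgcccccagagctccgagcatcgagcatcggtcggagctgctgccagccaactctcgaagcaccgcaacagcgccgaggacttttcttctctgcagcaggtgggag
Myl6, chr10:128492960-128493259, minus strand: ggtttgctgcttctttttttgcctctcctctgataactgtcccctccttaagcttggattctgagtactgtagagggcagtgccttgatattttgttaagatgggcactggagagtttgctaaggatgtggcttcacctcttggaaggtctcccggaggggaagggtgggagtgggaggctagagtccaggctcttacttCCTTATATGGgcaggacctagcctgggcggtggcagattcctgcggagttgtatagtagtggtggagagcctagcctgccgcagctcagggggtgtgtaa
The box begins at position -47 from the RefSeq start of the window in Actc1, -161 in Myl9 and -50 in Myl6. The Actc1 window lies inside the gene span of GENCODE M21 given above, so its start is not the outermost start in that annotation. A match is a description of the letters in the window only. Of the 3 genes only Actc1 was past 2-fold between a pair of libraries: Myl9 was at 5222 CPM in CONV, 6092 CPM in FLASH and 6088 CPM in NI, and Myl6 at 8379 CPM in CONV, 10078 CPM in FLASH and 8058 CPM in NI. Of 14 TGF-beta and YAP target genes with a window 0 held the box, and of 19 immediate early genes 2 did, Egr2 and Zfp36.

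**Figure D2:**
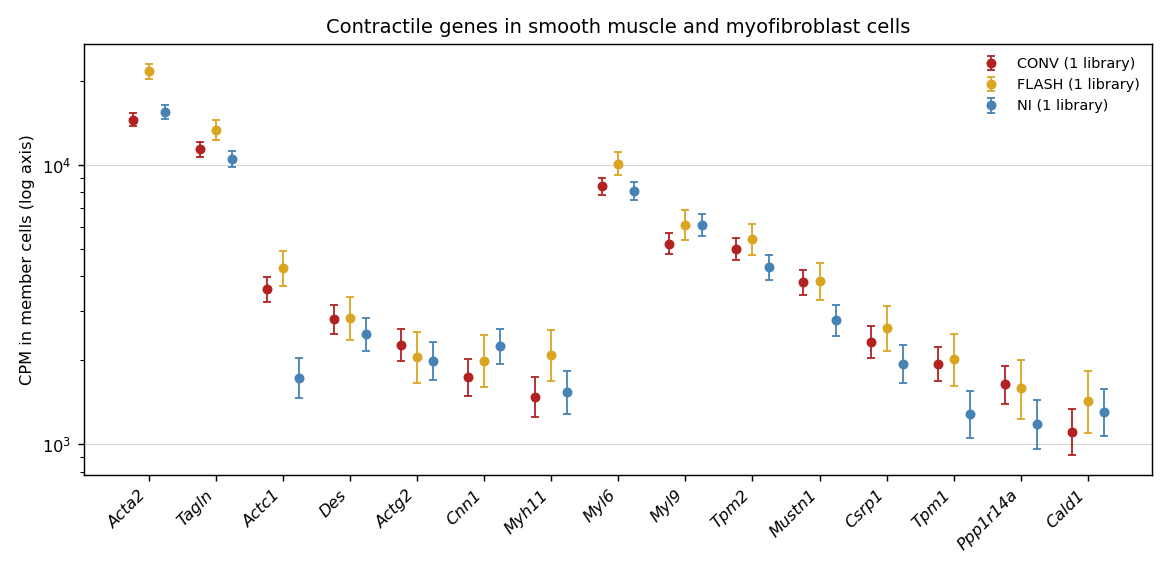
CPM in member cells (y axis, log) of the 7 genes of the rule and 8 genes of the thin filament and regulator list, by library. These 8 have the most UMIs of that list other than Hspb1. Bars are 95% Poisson intervals for counting error. Actc1 is at 3594 CPM in CONV and 4258 CPM in FLASH, against 1733 CPM in NI, and the intervals of most other genes overlap or nearly so.

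Few genes of the contractile apparatus were past 2-fold. A gene is called measured with at least 30 UMIs over the members of the 3 libraries. Of the 18 measured genes of the thin filament and regulator list, 1 was at least 2-fold higher in CONV than in NI and 0 were lower, beside 4.28% of all 1192 measured genes higher and 4.7% lower. In FLASH 2 were at least 2-fold higher than in NI and 0 were lower, beside 4.78% of all genes higher and 10.2% lower. The median log2 ratio to NI was 0.13 in CONV and 0.35 in FLASH. Over all measured genes it was -0.01 in CONV and -0.07 in FLASH. Hspb1, the small heat shock protein that binds actin, was the CONV gene, and Hspb1 and Nexn, nexilin, were those of FLASH. Nexn had 26 UMIs in CONV, 20 in FLASH and 17 in NI, with a FLASH to NI ratio of 2.24 (1.12 to 4.56). Tpm1, tropomyosin 1, was at 1946 CPM in CONV, 2016 CPM in FLASH and 1282 CPM in NI, and Mustn1, a small nuclear protein of muscle, at 3802 CPM in CONV, 3827 CPM in FLASH and 2777 CPM in NI.

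Mylk (chr16:34745210-35002420, plus strand), the kinase that phosphorylates the light chain, differed between the irradiated libraries. It had 57 UMIs in CONV, 50 in FLASH and 79 in NI, and FLASH to CONV was 2.00 (1.34 to 2.98), past 2-fold beside 3.44% of all measured genes. CONV to NI was 0.604 (0.422 to 0.859) and FLASH to NI 1.21 (0.830 to 1.74). Ednrb, an endothelin receptor, had 8 UMIs in CONV, 10 in FLASH and 13 in NI, and Gucy1b3, a subunit of the nitric oxide receptor, 11 in CONV, 11 in FLASH and 17 in NI. The FLASH to CONV ratio was 2.85 for Ednrb (1.01 to 8.31) and 2.28 for Gucy1b3 (0.897 to 5.80), both on few UMIs. Atp2a2, the calcium pump of the sarcoplasmic reticulum, had 13 UMIs in CONV, 5 in FLASH and 30 in NI, with ratios to NI of 0.362 in CONV (0.174 to 0.716) and 0.318 in FLASH (0.0965 to 0.828). Cav1, caveolin, was at 447 CPM in CONV, 589 CPM in FLASH and 368 CPM in NI, and Gucy1a3, the partner subunit of Gucy1b3, at 218 CPM in CONV, 226 CPM in FLASH and 225 CPM in NI. Of the 8 measured genes for calcium and tone, 0 were at least 2-fold higher and 1 lower in CONV than in NI, beside 4.28% of all measured genes higher and 4.7% lower. In FLASH 1 was higher and 1 lower than in NI, beside 4.78% of all higher and 10.2% lower. Between the modes 3 were higher in FLASH than in CONV and 0 lower, beside 3.44% of all higher and 6.88% lower.

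The dense plaques fix the filaments to the membrane. Of 13 measured genes 11 were below NI in CONV, but 0 were past 2-fold in either direction, and the median log2 ratio was -0.33 with a ratio of summed levels of 0.880 (0.807 to 0.959). In FLASH 8 were below NI, and 1, the integrin Itga5, was at least 2-fold lower, beside 10.2% of all measured genes. The FLASH median was -0.08 and the ratio of sums 0.960 (0.862 to 1.07). Itga5 had 12 UMIs in CONV, 3 in FLASH and 16 in NI. Dstn, the actin depolymerising factor destrin, was at 3068 CPM in CONV, 2967 CPM in FLASH and 3311 CPM in NI, and Flna, filamin A, at 1261 CPM in CONV, 1449 CPM in FLASH and 1685 CPM in NI. Vim, vimentin, was at 1896 CPM in CONV, 2129 CPM in FLASH and 2089 CPM in NI, and Fhl1, a LIM protein, at 1191 CPM in CONV, 996 CPM in FLASH and 1056 CPM in NI. Among the transcription factors of contraction only Nr2f2, a factor of veins, was measured, with 26 UMIs in CONV, 8 in FLASH and 24 in NI. Myocd, myocardin, had a count of 1 in CONV, 2 in FLASH and 2 in NI, and Srf, serum response factor, 2 in CONV, 1 in FLASH and 3 in NI, so their levels could not be compared at this depth.

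**Figure D3:**
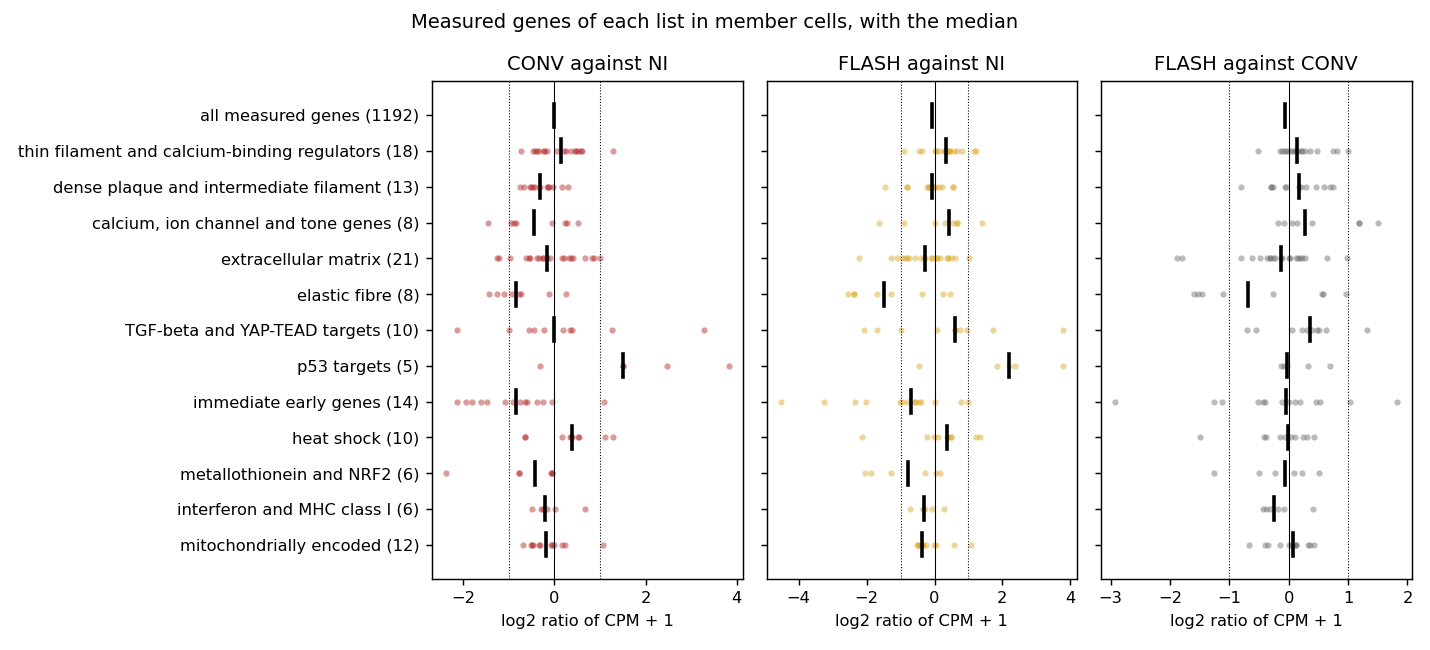
Log2 ratios of CPM + 1 (x axis) of the measured genes of 12 lists, in member cells, for the 3 comparisons; each point is a gene, the black bar is the median and the number after each name is how many genes were measured. The medians of the p53 targets are 1.51 for CONV and 2.20 for FLASH against NI and -0.03 for FLASH against CONV, and the medians of the elastic fibre and immediate early lists are below 0 against NI in both.

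Targets of p53, the factor that halts the cell cycle after DNA damage, were higher in both irradiated libraries than in NI. Of 30 genes of the list 5 were measured, and 4 of these were at least 2-fold higher than in NI in CONV and in FLASH, Cdkn1a, Phlda3, Rps27l and Bax, beside 4.28% of all measured genes in CONV and 4.78% in FLASH. Cdkn1a, Phlda3 and Bax passed the limit for a measured gene mostly through the irradiated libraries, so this count is a description only. Over all 30 genes, without that limit, the summed level was 1.92 times NI in CONV (1.58 to 2.35). In FLASH it was 2.19 times NI (1.75 to 2.75). No measured target was past 2-fold between FLASH and CONV, and the median log2 ratio was -0.03. Both comparisons with NI use the same NI library, so they are not independent.

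Cdkn1a (chr17:29090976-29100727, plus strand), the cell cycle inhibitor p21, had 53 UMIs in 21 of 44 CONV cells, 22 UMIs in 12 of 21 FLASH cells and 8 UMIs in 4 of 21 NI cells. Both ratios to NI exceeded 5, with 5.54 in CONV (2.62 to 13.5) and 5.25 in FLASH (2.25 to 13.6), and FLASH to CONV was 0.947 (0.548 to 1.58). On the vascular side alone, with 26 UMIs in CONV, 7 in FLASH and 6 in NI, the ratio to NI was 4.33 in CONV (1.74 to 12.9) and 2.22 in FLASH (0.638 to 7.99). On the airway side it was 6.72 in CONV (1.63 to 59.3) and 10.9 in FLASH (2.38 to 101). Thinned to 1000 UMIs, 14 of 44 CONV cells, 11 of 21 FLASH cells and 1 of 21 NI cells had a UMI. The members had 526 CPM in CONV, 498 CPM in FLASH and 94.9 CPM in NI, and the lymphocytes 201 CPM in CONV, 216 CPM in FLASH and 50.6 CPM in NI. Phlda3 (chr1:135766119-135769136, plus strand), which restrains the kinase Akt, had 35 UMIs in CONV, 15 in FLASH and 2 in NI. Both NI UMIs lay in the NI cell rich in alveolar fibroblast RNA, without which NI had 0. The ratios to NI were 14.6 in CONV (3.76 to 126) and 14.3 in FLASH (3.33 to 129).

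Rps27l, a ribosomal protein paralogue induced by p53, had 106 UMIs in 39 CONV cells, 58 UMIs in 18 FLASH cells and 31 UMIs in 13 NI cells. Its ratios to NI were 2.86 (1.90 to 4.42) in CONV and 3.57 (2.27 to 5.71) in FLASH, and in lymphocytes it was at 485 CPM in CONV, 483 CPM in FLASH and 528 CPM in NI. Bax, which opens mitochondria in apoptosis, had 24 UMIs in CONV, 17 in FLASH and 7 in NI, with ratios to NI of 2.87 (1.2 to 7.88) in CONV and 4.63 (1.83 to 13.2) in FLASH. With a mitochondrial limit of 5% the Bax ratio to NI was 1.64 in CONV, under the 2-fold line, and 2.11 in FLASH. Btg2, the fifth measured target, had 50 UMIs in CONV, 20 in FLASH and 52 in NI. Over all members its ratios of 0.804 in CONV (0.534 to 1.21) and 0.734 in FLASH (0.415 to 1.25) lay on the other side of 1. On the vascular side Btg2 had 13 UMIs in CONV, 12 in FLASH and 42 in NI. The ratio to NI there was 0.31 in CONV (0.152 to 0.588) and 0.543 in FLASH (0.26 to 1.05). The airway side, with 4 NI cells, had 36 UMIs in CONV, 8 in FLASH and 4 in NI. There the ratio to NI was above 1, at 6.05 in CONV (2.17 to 23.4) and 3.96 in FLASH (1.06 to 17.98). The targets below the limit had few UMIs: Ccng1 had 9 in CONV, 7 in FLASH and 1 in NI, and Mdm2 4 in CONV, 0 in FLASH and 2 in NI.

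In fibroblasts too Cdkn1a was higher in both irradiated libraries than in NI, and so was Phlda3 on the alveolar fibroblast side. In kept cells with collagen RNA on the alveolar fibroblast side, Cdkn1a was at 682 CPM in 268 CONV cells, 701 CPM in 204 FLASH cells and 115 CPM in 83 NI cells, and the ratio to NI was 5.93 in CONV and 6.10 in FLASH. On the adventitial fibroblast side it was at 770 CPM in 94 CONV cells, 684 CPM in 75 FLASH cells and 392 CPM in 41 NI cells. Phlda3 was at 489 CPM in CONV, 473 CPM in FLASH and 335 CPM in NI on the alveolar side, so its NI level there was well above the 23.7 CPM of the NI members. Whether the ratios of the members differ from those of the fibroblasts was not tested.

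**Figure D4:**
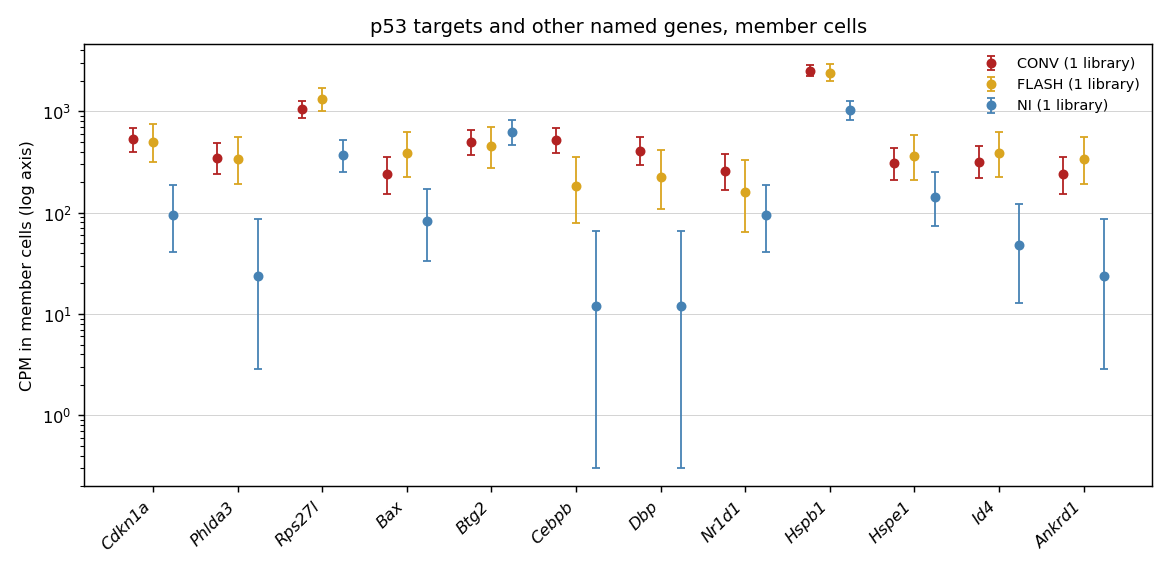
CPM in member cells (y axis, log) of 5 p53 targets and 7 other named genes by library, with 95% Poisson intervals for counting error. Cebpb and Dbp have a single UMI in NI, shown at 11.9 CPM, while Btg2 has overlapping intervals in the 3 libraries.

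Several genes outside the p53 list were higher in both irradiated libraries as well. Cebpb (chr2:167688915-167690418, plus strand), a C/EBP factor of inflammation and differentiation, had 52 UMIs in 26 of 44 CONV cells, 8 UMIs in 8 of 21 FLASH cells and 1 UMI in 1 of 21 NI cells. The ratio to NI was 43.5 in CONV (7.47 to 1751) and 15.3 in FLASH (2.05 to 677), and FLASH to CONV was 0.351 (0.144 to 0.744). The members had Cebpb at 516 CPM in CONV, 181 CPM in FLASH and 11.9 CPM in NI, and the lymphocytes at 458 CPM in CONV, 407 CPM in FLASH and 21.6 CPM in NI. The lymphocyte ratios to NI were 21.1 in CONV and 18.8 in FLASH. On the alveolar fibroblast side Cebpb was at 833 CPM in CONV, 605 CPM in FLASH and 59.3 CPM in NI.

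Dbp (chr7:45705088-45710203, plus strand), an output factor of the circadian clock, had 41 UMIs in 23 CONV cells, 10 UMIs in 8 FLASH cells and 1 UMI in NI. Its ratios to NI were 34.3 (5.82 to 1387) in CONV and 19.1 (2.72 to 828) in FLASH, with levels of 407 CPM in CONV, 226 CPM in FLASH and 11.9 CPM in NI. Lymphocytes had 50.7 CPM in CONV, 40.7 CPM in FLASH and 15.1 CPM in NI. Nr1d1, a repressor of the clock, had 26 UMIs in CONV, 7 in FLASH and 8 in NI, a CONV to NI ratio of 2.72 (1.2 to 6.95). For these clock genes the hour of sampling, which is not given, cannot be told apart from the treatment with 1 library per group.

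Id4, an inhibitor of bHLH factors, had 32 UMIs in 15 CONV cells, 17 UMIs in 8 FLASH cells and 4 UMIs in 4 NI cells. Its ratios to NI were 6.69 in CONV (2.37 to 26.0) and 8.11 in FLASH (2.65 to 33.1), and the members exceeded the other kept cells 45.8-fold in CONV, 52.2-fold in FLASH and 164-fold in NI. Ankrd1 (chr19:36111961-36120099, minus strand), a stretch-responsive target of YAP found in muscle, had 24 UMIs in 16 CONV cells, 15 UMIs in 7 FLASH cells and 2 UMIs in 2 NI cells. The ratios to NI were 10.0 in CONV (2.49 to 87.6) and 14.3 in FLASH (3.33 to 129), and lymphocytes of all 3 libraries had 0 UMIs of it. Thinned to 1000 UMIs, 13 of 44 CONV, 4 of 21 FLASH and 2 of 21 NI cells had Ankrd1.

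Hspb1 (chr5:135887919-135889563, plus strand) had 252 UMIs in 36 CONV cells, 106 UMIs in 17 FLASH cells and 86 UMIs in 15 NI cells, and was at 2502 CPM in CONV, 2401 CPM in FLASH and 1021 CPM in NI. The ratio to NI was 2.45 in CONV (1.91 to 3.17) and 2.35 in FLASH (1.75 to 3.16). The UMIs were uneven between cells: the highest CONV cells held 49, 47 and 36, the highest FLASH cell 29 and the highest NI cell 26. The CONV cell with 47 is rich in alveolar fibroblast RNA, and without the fibroblast-rich cells the CONV to NI ratio was 2.04. Over the other choices of cells and scaling, the FLASH to NI ratio ran from 1.83 to 3.17. On the alveolar fibroblast side Hspb1 was at 476 CPM in CONV, 497 CPM in FLASH and 666 CPM in NI, and on the adventitial side at 346 CPM in CONV, 424 CPM in FLASH and 538 CPM in NI, lower in both irradiated libraries than in NI. Hspe1, the mitochondrial co-chaperonin, had 31 UMIs in CONV, 16 in FLASH and 12 in NI, with ratios of 2.16 in CONV (1.08 to 4.62) and 2.54 in FLASH (1.13 to 5.89). Of the 10 measured heat shock genes, 2 were at least 2-fold higher and 0 lower in CONV than in NI, beside 4.28% of all measured genes higher and 4.7% lower. In FLASH 2 were higher and 1 lower, beside 4.78% of all higher and 10.2% lower. The lower one was Hspd1, the chaperonin that works with Hspe1, which had 13 UMIs in CONV, 2 in FLASH and 17 in NI. The median log2 ratio was 0.38 in both, and Cryab, a chaperone of desmin, was at 576 CPM in CONV, 521 CPM in FLASH and 404 CPM in NI. Hspa8 was at 1549 CPM in CONV, 1925 CPM in FLASH and 1389 CPM in NI, Hsp90ab1 at 1241 CPM in CONV, 951 CPM in FLASH and 961 CPM in NI, and Hsp90aa1 at 635 CPM in CONV, 476 CPM in FLASH and 439 CPM in NI.

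The other genes named by the ranking of CONV against NI were Srsf11, Serpinb6b and Neat1 among the higher ones. Srsf11, a splicing factor, had 22 UMIs in CONV, 6 in FLASH and 2 in NI. The nuclear RNA Neat1 had 39 UMIs in CONV, 13 in FLASH and 12 in NI. In FLASH against NI the others were Rap1b, Prss23 and Ppp1r2. Prss23, a serine protease, was at 804 CPM in CONV, 1404 CPM in FLASH and 593 CPM in NI, with a FLASH to NI ratio of 2.37 (1.60 to 3.51). As a mean of the cells' own CPM that ratio was 1.5, under the 2-fold line.

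Immediate early genes, which cells switch on within minutes of a stimulus, were lower in both irradiated libraries for most members of the list. Of 14 measured, 6 were at least 2-fold lower in CONV than in NI and 1 higher, beside 4.7% of all measured genes lower and 4.28% higher. In FLASH 5 were lower and 0 higher, beside 10.2% of all lower and 4.78% higher. The median log2 ratio to NI was -0.83 in CONV and -0.70 in FLASH, and that of FLASH to CONV was -0.05. Fosb, Klf2, Atf3 and Nr4a1 passed the limit for a measured gene only with their NI UMIs, so these counts and medians are a description only. Over all 23 genes of the list, without that limit, the summed level was 0.525 of NI in CONV (0.472 to 0.585). In FLASH it was 0.577 of NI (0.501 to 0.662).

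Fos (chr12:85473890-85477273, plus strand), a subunit of AP-1, had 101 UMIs in 19 CONV cells, 61 UMIs in 11 FLASH cells and 234 UMIs in 13 NI cells. The ratio to NI was 0.361 in CONV (0.283 to 0.458) and 0.497 in FLASH (0.369 to 0.662). The highest cell held 19 UMIs in CONV, 17 in FLASH and 51 in NI, and the 3 highest cells held 44 of the 101 UMIs in CONV, 34 of the 61 in FLASH and 147 of the 234 in NI. The mean of the cells' own CPM gave 0.689 for FLASH to NI, above the 2-fold line. Fosb, its relative, had 18 UMIs in CONV, 6 in FLASH and 58 in NI, with ratios of 0.26 in CONV (0.144 to 0.447) and 0.197 in FLASH (0.0696 to 0.456).

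Klf2, a factor induced by flow in endothelium, had 20 UMIs in 9 CONV cells, 4 UMIs in 1 FLASH cell and 74 UMIs in 11 NI cells, with ratios to NI of 0.226 in CONV (0.131 to 0.375) and 0.103 in FLASH (0.0273 to 0.275). A few NI cells carried most of it, with 57 of the 74 UMIs in 3 cells, beside 14 of the 20 UMIs in the 3 highest CONV cells. A pair of NI cells was among the 3 highest for Fos, for Klf2 and for Ctgf, a connective tissue growth factor. On the vascular side the Klf2 ratio of CONV to NI was 0.6 (0.315 to 1.11), not past 2-fold. In lymphocytes Klf2 ran the other way, at 1199.5 CPM in CONV, 1279 CPM in FLASH and 605 CPM in NI. Atf3, a stress-response factor, had 18 UMIs in CONV, 1 in FLASH and 46 in NI, and the ratios to NI were 0.327 in CONV (0.179 to 0.576) and 0.0415 in FLASH (0.00103 to 0.243). Jund, a stable AP-1 subunit, was the member that was higher, with 64 UMIs in CONV, 26 in FLASH and 25 in NI, and its CONV to NI ratio was 2.14 (1.33 to 3.55). Jun was at 576 CPM in CONV, 657 CPM in FLASH and 902 CPM in NI, and Junb at 675 CPM in CONV, 498 CPM in FLASH and 878 CPM in NI. Nr4a1, an orphan nuclear receptor, had 22 UMIs in CONV, 4 in FLASH and 31 in NI.

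Dusp1, the phosphatase that turns off stress kinases, separated FLASH from CONV. It had 23 UMIs in 13 CONV cells, 36 UMIs in 11 FLASH cells and 68 UMIs in 14 NI cells. FLASH to CONV was 3.57 (2.06 to 6.31), FLASH to NI 1.01 (0.655 to 1.53) and CONV to NI 0.283 (0.168 to 0.46). One FLASH cell held 13 of its UMIs. On the alveolar fibroblast side Dusp1 was at 643 CPM in CONV, 946 CPM in FLASH and 1192 CPM in NI, and in lymphocytes at 351 CPM in CONV, 370 CPM in FLASH and 302 CPM in NI.

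**Figure D5:**
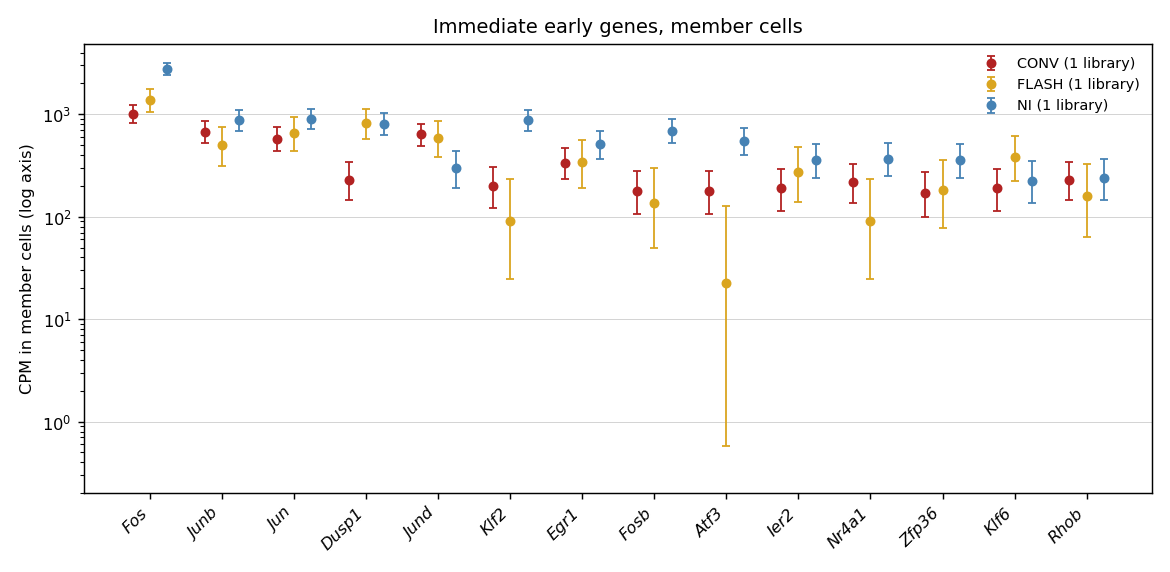
CPM in member cells (y axis, log) of the 14 measured immediate early genes by library, ordered by their UMIs, with 95% Poisson intervals for counting error. Most points of CONV and FLASH lie below those of NI, with Jund above NI in both and Dusp1 and Klf6 above NI in FLASH.

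The matricellular targets of YAP went different ways. Ctgf had 22 UMIs in 16 CONV cells, 10 UMIs in 4 FLASH cells and 81 UMIs in 14 NI cells, with ratios to NI of 0.227 in CONV (0.135 to 0.368) and 0.236 in FLASH (0.109 to 0.456). The 3 highest cells held 8 of the 22 UMIs in CONV, 9 of the 10 in FLASH and 44 of the 81 in NI. Cyr61, its close relative, had 55 UMIs in CONV, 60 in FLASH and 68 in NI, and FLASH to CONV was 2.49 (1.70 to 3.65), while FLASH to NI was 1.68 (1.17 to 2.42). Thbs1, thrombospondin 1, was at 526 CPM in CONV, 815 CPM in FLASH and 415 CPM in NI. Tgfb2, a TGF-beta ligand, had 23 UMIs in CONV, 14 in FLASH and 8 in NI, with ratios of 2.40 in CONV (1.04 to 6.22) and 3.34 in FLASH (1.31 to 9.19). Of 10 measured genes of the TGF-beta and YAP list, 2 were at least 2-fold higher and 1 lower in CONV than in NI, beside 4.28% of all measured genes higher and 4.7% lower. In FLASH 2 were higher and 2 lower, beside 4.78% of all higher and 10.2% lower. Id1, a target of bone morphogenetic protein, was the other lower one in FLASH, with 15 UMIs in CONV, 4 in FLASH and 25 in NI. Its relatives had more, Id3 at 1072 CPM in CONV, 1246 CPM in FLASH and 819 CPM in NI, and Id2 at 477 CPM in CONV, 589 CPM in FLASH and 558 CPM in NI. Ctgf was at least 2-fold lower than NI on the airway side and on the vascular side in both irradiated libraries.

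Most elastic fibre genes were below NI. Of 8 measured, 7 were below NI in CONV, 3 of them at least 2-fold, beside 4.7% of all measured genes. In FLASH 6 were below NI, 5 of them at least 2-fold, beside 10.2% of all, and 0 were 2-fold higher in either. Those 5 genes had only 2 to 6 UMIs each in FLASH. Fbln5, Ltbp1 and Ltbp2 passed the limit for a measured gene only with their NI UMIs, so the counts and medians are a description only. The summed level given next uses all 19 genes of the list, without that limit. The median log2 ratio was -0.85 in CONV and -1.49 in FLASH, but the summed level, in which elastin weighs most, was 0.570 of NI in CONV (0.488 to 0.664) and 0.718 of NI in FLASH (0.594 to 0.865), so the order of the irradiated libraries depends on the measure. Eln (chr5:134702593-134747323, minus strand), elastin itself, was nearer to NI in FLASH over all members. It had 108 UMIs in CONV, 92 in FLASH and 149 in NI, with ratios to NI of 0.606 in CONV (0.469 to 0.782) and 1.18 in FLASH (0.898 to 1.54), and FLASH to CONV of 1.94 (1.46 to 2.59). On the vascular side CONV to NI was 0.447 (0.323 to 0.612), FLASH to NI 0.994 (0.732 to 1.34) and FLASH to CONV 2.22 (1.55 to 3.20). On the airway side, with 16 UMIs of Eln in NI, CONV to NI was 1.51 (0.818 to 2.92). There FLASH to NI was 1.73 (0.783 to 3.79) and FLASH to CONV 1.15 (0.571 to 2.18). Fbln5, which guides elastin to the fibre, had 10 UMIs in CONV, 2 in FLASH and 20 in NI, Ltbp1, a latent TGF-beta binding protein, 11 in CONV, 4 in FLASH and 25 in NI, and Ltbp2, its relative, 14 in CONV, 2 in FLASH and 20 in NI. Efemp2, a fibulin, had 20 UMIs in CONV, 3 in FLASH and 14 in NI. Ltbp4 had 20 UMIs in CONV, 13 in FLASH and 32 in NI, and Loxl1, which links elastin, 23 in CONV, 15 in FLASH and 21 in NI. Mfap4, a microfibril protein, had 38 UMIs in CONV, 6 in FLASH and 68 in NI, but 42 of the NI UMIs lay in the cell rich in alveolar fibroblast RNA. Without the fibroblast-rich cells Mfap4 had 11 UMIs in CONV, 6 in FLASH and 26 in NI, and FLASH to CONV was 1.15.

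The collagens and other matrix genes showed no common direction. Of 21 measured, 1 was at least 2-fold higher and 2 lower in CONV than in NI, beside 4.28% of all measured genes higher and 4.7% lower. In FLASH 1 was higher and 3 lower, beside 4.78% of all higher and 10.2% lower. The list had median log2 ratios of -0.16 in CONV and -0.28 in FLASH. Postn, periostin, a marker of activated myofibroblasts, had 23 UMIs in CONV, 11 in FLASH and 45 in NI, with ratios of 0.428 in CONV (0.247 to 0.722) and 0.466 in FLASH (0.218 to 0.916). Col1a1, a chain of fibrillar collagen, had 22 UMIs in CONV, 19 in FLASH and 44 in NI, with a CONV to NI ratio of 0.418 (0.239 to 0.713) and a FLASH to NI ratio of 0.824 (0.454 to 1.44). Its partner chain Col1a2 had 34 UMIs in CONV, 12 in FLASH and 56 in NI. Mgp, matrix Gla protein, which keeps vessel walls from calcifying, was at 7476 CPM in CONV, 6341 CPM in FLASH and 5626 CPM in NI. Fn1, fibronectin, had 24 UMIs in CONV, 3 in FLASH and 10 in NI, and 6 of the CONV UMIs were in 1 cell. Lama4, a laminin chain, had 17 UMIs in CONV, 2 in FLASH and 18 in NI. Igfbp7 was at 5093 CPM in CONV, 5163 CPM in FLASH and 5483 CPM in NI. Bgn, biglycan, was at 1638 CPM in CONV, 1268 CPM in FLASH and 2136 CPM in NI, and Sparc, a collagen-binding protein, at 1291 CPM in CONV, 1291 CPM in FLASH and 1911 CPM in NI.

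Several secreted proteins were among the lowest ratios to NI. Ogn, osteoglycin, had 25 UMIs in 15 CONV cells, 17 UMIs in 5 FLASH cells and 84 UMIs in 12 NI cells, with a CONV to NI ratio of 0.249 (0.153 to 0.393). One NI cell held 31 of them, and one FLASH cell 9. Cpe, carboxypeptidase E, had 33 UMIs in CONV, 30 in FLASH and 78 in NI, and Angptl4, an inhibitor of lipoprotein lipase, 5 in CONV, 1 in FLASH and 25 in NI. Itih4, a hyaluronan-binding protein, had 18 UMIs in CONV, 20 in FLASH and 52 in NI, but 26 of the NI UMIs were in 1 cell. Mt2, a metallothionein, had 8 UMIs in 4 CONV cells, 5 UMIs in 4 FLASH cells and 35 UMIs in 5 NI cells. Inmt, Gpx3 and Mfap4 were also in these rankings, and they rested on the fibroblast-rich cells: Gpx3 had 77 UMIs in CONV, 14 in FLASH and 110 in NI with them and 45 in CONV, 14 in FLASH and 47 in NI without them. Inmt had 58 UMIs in CONV, 2 in FLASH and 66 in NI with them and 10 in CONV, 2 in FLASH and 1 in NI without them.

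Between the modes, Dusp1, Cyr61 and Mylk led the genes that were higher in FLASH than in CONV. Cnih4, Itih4, Cpe, Srrm2, Lmcd1, Rcn3 and Pkig followed in that ranking, by the bound nearest 1. Cnih4, which guides proteins out of the endoplasmic reticulum, had 12 UMIs in FLASH and 8 in CONV, a ratio of 3.42 (1.29 to 9.65). Pkig, an inhibitor of protein kinase A, had 14 UMIs in FLASH and 12 in CONV, and Srrm2, a splicing protein, 16 in FLASH and 14 in CONV. Itih4, Cpe, Lmcd1 and Rcn3 had ratios of 2.07 to 2.53. Lmcd1, a LIM protein of muscle, was at 521 CPM in FLASH, 238 CPM in CONV and 451 CPM in NI. The genes lower in FLASH than in CONV, 6.88% of all measured ones, had few UMIs there: Etfb and Sfrp2 had 0, Pnisr, Atf3 and Lrp1 had 1 and Hacd1 had 2. Hacd1, a muscle enzyme of long fatty acids, had 2 UMIs in FLASH and 29 in CONV, a ratio of 0.157 (0.0178 to 0.622). Pdcd5, an apoptosis gene, had 5 UMIs in FLASH and 37 in CONV. Sfrp2 was in 3 CONV cells, with 13 of 17 UMIs in 1 of them, and in 4 NI cells. At the FLASH depth 3 UMIs are 67.9 CPM, so a gene at 0 there may lie anywhere under that level.

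Transcripts of mitosis were near 0 in these cells. Of 10 mitosis genes, Ube2c had a count of 1 in CONV, 0 in FLASH and 2 in NI, Mki67 and Top2a had 1 each in NI and 0 in CONV and FLASH, and the rest had 0. Interferon-stimulated and MHC class I genes had 0 of 6 past 2-fold in either irradiated library against NI, and the highest, Ifitm3, was at 1926 CPM in CONV, 1472 CPM in FLASH and 1211 CPM in NI. B2m, the light chain of MHC class I, was at 774 CPM in CONV, 679 CPM in FLASH and 866 CPM in NI. The 12 measured mitochondrially encoded genes had a median log2 ratio of -0.19 in CONV and -0.36 in FLASH, with mt-Atp6, a subunit of the ATP synthase, at 8756 CPM in CONV, 9512 CPM in FLASH and 12438 CPM in NI. The median mitochondrial share of a member cell was 3.86% in CONV, 3.92% in FLASH and 4.91% in NI. Of the Notch pathway, Notch3, the receptor of vascular smooth muscle, had 25 UMIs in CONV, 12 in FLASH and 21 in NI and ratios to NI of 0.996 in CONV (0.535 to 1.87) and 1.09 in FLASH (0.489 to 2.32).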

How the data were processed

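The deposited files hold whole-number UMI counts per gene and barcode with no normalization. The submitters' processing notes name Cell Ranger 2.0 and build mm10. They cover 3 libraries of dissociated mouse lung made with the 10x Genomics droplet kit. Barcodes were kept and members chosen by the limits in the opening, and no doublets were removed in the main analysis. UMIs of a gene were summed over the members of a library and divided by all UMIs of those members, with exact Poisson intervals at 95%. Intervals of ratios are exact and binomial, conditional on the sum of both counts. PCR and sampling of cells are not in these intervals. Shares have Clopper-Pearson and their differences Newcombe intervals. A gene was measured with at least 30 UMIs over all members, and log2 list medians use a pseudocount of 1 CPM. A gene high in 1 library could pass that limit mostly through that library, so all counts past 2-fold are a description only.

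Named genes were the 10 highest and 10 lowest ratios past 2-fold per comparison, ranked by the bound nearest 1, without ribosomal, mitochondrial, haemoglobin and predicted genes, rule genes, markers of other lineages, and genes under 25% of their level in other cells. From each list, the 4 genes with the most UMIs and those past 2-fold were named, and 15 genes by the ratio of members to other cells. Tpm1, Cryab, Ccng1, Mdm2, Myocd, Srf, Mki67, Top2a, Ube2c, Actg1, Prdx1 and Egr2 were added from the lists after their values were seen. Of the genes so named, 2 of the calcium and tone list are not reported here, but are counted in it, and Ftl1, H2-D1, Ifitm2, Hes1, Tnfrsf1a, Mxra8, 3 of the 4 most abundant mitochondrially encoded genes and mt-Nd4l have no levels in the text. Lymphocytes and fibroblast sides were kept cells chosen by markers. The members and the 19 lists and 14 marker lists were chosen with earlier results of these data known. Promoters are RefSeq windows. The ratio intervals were tested on simulated Poisson counts, the model they assume, without differences between cells. That test cannot show how they hold for genes with uneven counts between cells. Python 3.11.15, numpy 2.4.6, scipy 1.17.1, pandas 2.3.3, scanpy 1.11.5 and matplotlib 3.10.9 were used.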

Additional observations from a re-analysis of the deposited data

How the results depend on the processing

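Over the other limits of the rule that left members, the member share differed by 0.477 to 0.814 points between CONV and NI, by -0.942 to -0.774 points between FLASH and CONV and by -0.373 to 0.0394 points between FLASH and NI. A gene ratio stayed within the 95% interval of its main value in 3020 recomputations and left it in 162. In 24 a ratio past 2-fold crossed 1. These counts do not measure how firm a ratio is. Removal of doublets took out 0 members and so could change no ratio, and several other settings changed few cells. Intervals of genes with few UMIs are also wide enough to hold most values. Ratios under 2-fold that crossed 1 are not in the 24, such as Zfp36 in FLASH to NI, which ranged from 0.189 to 5.94. With a mitochondrial limit of 5%, 77 genes were lower in FLASH than in NI and 23 higher in FLASH than in CONV. On the airway side, with 13 CONV, 6 FLASH and 4 NI cells, the higher and lower counts were 24 and 23 for CONV against NI, 23 and 33 for FLASH against NI, and 15 and 24 for FLASH against CONV. On the vascular side they were 33 and 34, 33 and 76, and 27 and 48. With at least 60 UMIs for a measured gene they were 18 and 20, 16 and 33, and 8 and 14, and past 3-fold 15 and 14, 16 and 54, and 3 and 27.

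Median log2 ratios changed on the airway side to -0.10 for the thin filament list and 0.44 for immediate early genes in FLASH against NI, and to 0.16 for the metallothionein and NRF2 list in CONV against NI. The dense plaque list was at 0.13 in CONV against NI with the 5% limit. The ratio of Inmt in FLASH to NI turned to 3.78 with at least 20 UMIs of Acta2 and Tagln, 3.58 with at least 4 UMIs of the other contractile genes, 1.64 with the rule on thinned cells, 1.90 on the vascular side and 3.58 without the fibroblast-rich cells. Mfap4 in FLASH to CONV turned to 2.38 on the vascular side and 1.15 without those cells. Mxra8 in CONV to NI was 1.15 with at least 20 UMIs and 1.11 with the rule on thinned cells, and Cnih4 in FLASH to NI was 0.95 with the 5% limit. Few UMIs are left on the airway side, where CONV to NI was 2.47 for Col1a1, 1.34 for Srrm2 and 3.03 for Zfp36, FLASH to NI was 0 for Cxcl12 and Serpinb6b, 0.792 for Hspe1 and 0.990 for Rap1b, and FLASH to CONV was 0 for Cxcl12 and Lmcd1, 0.737 for Gucy1b3, 5.89 for Klf2 and 0.589 for Rap1b. On the vascular side FLASH to CONV was 0.951 for Ednrb and 1.27 for Fbln5. The cause of these changes was not tested.

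The alternatives that left out the fibroblast-rich cells, the NI cell with pericyte RNA or the deepest member of each library were chosen after the data had been seen. Asking for fewer than 3 epithelial UMIs left 0 members and gave no value. No paired analysis was possible because each group is 1 library. Of the 3 libraries the FLASH members are the shallowest, and their counts are the least precise.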

Other observations

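Metallothioneins and genes of the NRF2 response, which bind metals and limit oxidation, were lower than in NI or close to it. Of 6 measured, 0 were at least 2-fold higher and 1 lower in CONV than in NI, beside 4.28% of all measured genes higher and 4.7% lower. In FLASH 0 were higher and 3 lower, beside 4.78% of all higher and 10.2% lower. Mt1 had 68 UMIs in 14 CONV cells, 21 UMIs in 9 FLASH cells and 98 UMIs in 11 NI cells, with ratios to NI of 0.58 in CONV (0.42 to 0.799) and 0.409 in FLASH (0.242 to 0.66). Fth1, the ferritin heavy chain, was at 8071 CPM in CONV, 6907 CPM in FLASH and 8462 CPM in NI. Prdx1, a peroxidase, was at 755 CPM in CONV, 883 CPM in FLASH and 783 CPM in NI.

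The actins that all cells share were close between the libraries: Actb was at 6453 CPM in CONV, 5820 CPM in FLASH and 6231 CPM in NI, and Actg1 at 1926 CPM in CONV, 1698 CPM in FLASH and 1531 CPM in NI. Igfbp5, a binding protein of insulin-like growth factors, had 34 UMIs in CONV, 17 in FLASH and 16 in NI, with ratios to NI of 1.78 in CONV (0.955 to 3.45) and 2.03 in FLASH (0.963 to 4.29). Of the 16 NI UMIs, 9 were in 1 cell. Of the cytokine list, Cxcl12, a chemokine of stroma, had 12 UMIs in CONV, 12 in FLASH and 9 in NI, and Nfkbia, the NF-kB inhibitor, 24 in CONV, 9 in FLASH and 19 in NI.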
